A study of Homo sapiens and Mus musculus with 33 samples.

Results

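Crtam, Cd160, Slamf1 and Slamf6 encode 4 receptors of the T cell surface, and they are described here in mouse naive T cells stimulated for up to 8 h. The 4 genes were listed by name and found by symbol among the 32285 genes of the naive T libraries, as Crtam (ENSMUSG00000032021), Cd160 (ENSMUSG00000038304), Slamf1 (ENSMUSG00000015316) and Slamf6 (ENSMUSG00000015314). They were chosen for their levels in these same libraries, so all naive T values below are descriptions without a test.

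Crtam is an immunoglobulin superfamily receptor that appears on activated T cells and NK cells and binds the adhesion molecule Cadm1. Cd160 is a membrane-anchored receptor of cytotoxic lymphocytes that binds Tnfrsf14 (HVEM) and MHC class I molecules. Slamf1 and Slamf6 belong to the SLAM family, whose members mostly bind their own kind on a neighbouring cell and signal through the adaptor SAP (Sh2d1a) and the kinase Fyn; Slamf6 is present on resting T cells.

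T lymphocytes from mouse lymph nodes were stimulated with anti-CD3 and anti-CD28 antibodies, which engage the antigen receptor and a costimulatory receptor, and were sampled at 0, 2, 4, 6 and 8 h, with 1 library per time. These 5 libraries were labelled with 4-thiouridine (4sU), a uridine analogue that enters new RNA, and 1 further library had no 4sU. The label of that library does not say whether its cells were stimulated, and the strain, age and number of the mice are not given in the sources used here. Human Jurkat cells, a T cell leukaemia line, gave 2 libraries stimulated with PMA and ionomycin, drugs that trigger the signals downstream of the antigen receptor, and 2 unstimulated libraries; all 4 were labelled with 4sU. In the labels the clone is E6-2 for both stimulated Jurkat libraries and E6-1 for both unstimulated ones, and no source used here says whether E6-2 is a separate clone; if it is, stimulation and clone cannot be told apart. One library of each Jurkat group is labelled replicate 1, and the unnumbered one is called replicate 2 here.

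The naive T libraries held 973 to 2816 cells and 710533 to 1358518 UMIs (unique molecular identifiers, each standing for 1 captured RNA molecule). The median cell had 375, 338, 425.5, 574 and 659 UMIs at 0, 2, 4, 6 and 8 h, and 408 without 4sU, so a moderately expressed gene gives no UMI in most cells that hold its RNA. The libraries shared at most 5 cell barcodes with one another. Levels are in CPM, the UMIs of a gene scaled to a library total of 1000000 UMIs. The T cell marker list summed to between 3353 and 4510 CPM in the 6 libraries, with all 7 of 7 genes detected. Cd8a and Cd8b1 together had 118 to 738 UMIs per library and Cd4 had 12 to 38. Of the 10 NK and innate-like T cell markers, 5 to 9 were detected per library and summed to 189, 295, 345, 621 and 573 CPM at 0, 2, 4, 6 and 8 h; Ncr1 was at 0 in all 6 and Klrb1c had at most 1 UMI; Nkg7, which activated CD8 T cells also express, had 50, 156, 253, 738 and 341 UMIs at 0, 2, 4, 6 and 8 h, whereas Klrd1, a receptor chain of NK cells and CD8 T cells, had 72, 45, 23, 37 and 48. The 5 myeloid markers summed to at most 3 UMIs per library. Of the 2 regulatory T cell markers, Foxp3 had 0, 0, 1, 6 and 1 UMIs at 0, 2, 4, 6 and 8 h and Ikzf2 had 56, 22, 10, 4 and 0. The 4 memory markers summed to 212, 217, 209, 127 and 121 CPM at 0, 2, 4, 6 and 8 h. Of the 4 fibroblast markers, the collagen genes had at most 1 UMI each, and Vim, which T cells also express, had 35, 103, 25, 7 and 1 UMIs. The part of these other cells in the levels below was not tested.

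Crtam had 2, 210, 290, 285 and 102 UMIs at 0, 2, 4, 6 and 8 h, and 7 in the library without 4sU. Its level was 2.74 CPM at 0 h, 277 at 2 h (95% Poisson interval 240 to 317), 331 at 4 h (294 to 372), 224 at 6 h (199 to 252) and 144 at 8 h (117 to 174). Crtam RNA was thus near the limit of detection at 0 h and high from the first stimulated sample onward. Its CPM at 4 h was 121 times that at 0 h, with an interval of 33.2 to 1005 that is wide because the 0 h value is 2 UMIs. The level at 4 h was 1.20 times that at 2 h (0.999 to 1.44), so these neighbours did not differ beyond counting error, whereas the level at 6 h was 0.677 times that at 4 h (0.573 to 0.800) and the level at 8 h was 0.641 times that at 6 h (0.506 to 0.806). All intervals cover counting error only, and with 1 library per time no replicate check was possible.

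Cd160 had 1, 124, 430, 338 and 72 UMIs at 0, 2, 4, 6 and 8 h, and 6 in the library without 4sU. Its level was 1.37 CPM at 0 h, 163 CPM at 2 h (136 to 195), 491 CPM at 4 h (446 to 540), 266 CPM at 6 h (238 to 296) and 101 CPM at 8 h (79.3 to 128). Cd160 was, like Crtam, highest at 4 h, and no 2 stimulated libraries had overlapping intervals. The CPM at 4 h was 3.01 times that at 2 h (2.46 to 3.70), and that at 8 h was 0.381 times that at 6 h (0.291 to 0.493). Against the single UMI of the 0 h library, the ratio at 4 h was 359 (64.1 to 14215).

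Slamf1 had 2, 204, 146, 146 and 41 UMIs at 0, 2, 4, 6 and 8 h, and 7 in the library without 4sU. Its level was 2.74 CPM at 0 h, 269 CPM at 2 h (233 to 308), 167 CPM at 4 h (141 to 196), 115 CPM at 6 h (96.9 to 135) and 57.7 CPM at 8 h (41.4 to 78.3). Slamf1 was highest in the first stimulated sample and lower at each later one, with no overlap between the intervals of neighbouring times. The CPM at 2 h was 98.2 times that at 0 h (26.9 to 817), and that at 4 h was 0.620 times that at 2 h (0.498 to 0.771).

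Slamf6 had 40, 25, 26, 40 and 21 UMIs at 0, 2, 4, 6 and 8 h, and 107 in the library without 4sU. Its level was 54.7 CPM at 0 h (39.1 to 74.5), 32.9 CPM at 2 h (21.3 to 48.6), 29.7 CPM at 4 h (19.4 to 43.5), 31.5 CPM at 6 h (22.5 to 42.8) and 29.6 CPM at 8 h (18.3 to 45.2). Unlike the other receptors, Slamf6 was present at 0 h. Its CPM ratio to 0 h was 0.602 at 2 h (0.350 to 1.02), 0.543 at 4 h (0.318 to 0.912), 0.575 at 6 h (0.362 to 0.914) and 0.540 at 8 h (0.303 to 0.938). Scaled by total UMIs, Slamf6 was thus lower beyond counting error at 4, 6 and 8 h but not at 2 h. The 4 stimulated libraries did not differ beyond counting error. The log2 ratio was -0.73 at 2 h, -0.88 at 4 h, -0.80 at 6 h and -0.89 at 8 h, beside medians over every gene with 20 or more UMIs in the 2 libraries of -0.15, -0.21, -0.24 and -0.22. At 0 h its CPM was 0.695 times that in the library without 4sU (0.470 to 1.01). In such sums, fewer cells with a gene and less RNA per cell cannot be told apart.

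**Figure D1:**
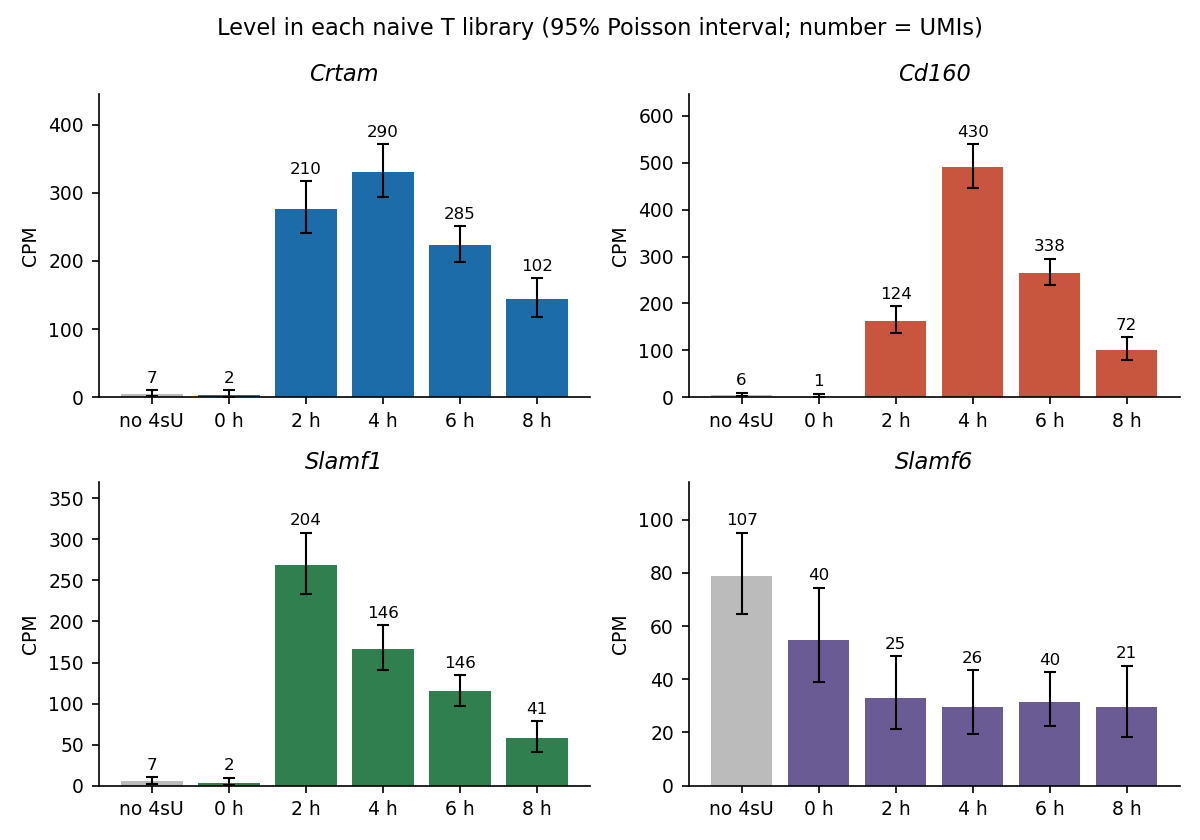
Level of each gene in CPM (y axis, a separate scale per gene) in the 6 naive T libraries (x axis). Bars are single libraries, error bars are 95% Poisson intervals and the number above each bar is the UMI count. Crtam and Cd160 are highest at 4 h (331 and 491 CPM), Slamf1 at 2 h (269 CPM), and Slamf6 is highest in the library without 4sU (78.8 CPM) and lies near 30 to 33 CPM in all stimulated libraries.

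Crtam, Cd160 and Slamf1 were at least 2-fold higher than at 0 h at every stimulated time, and Slamf6 passed 2-fold in neither direction at any. Against the library without 4sU and scaled by total UMIs, Slamf6 was past 2-fold lower at all 4 times. Its log2 ratios were -1.26, -1.41, -1.32 and -1.41 at 2, 4, 6 and 8 h. Of every gene with 20 or more UMIs in the 2 libraries compared, 11.5% were at least 2-fold higher at 2 h, 20.9% at 4 h, 22.5% at 6 h and 24.9% at 8 h; the members were chosen on these contrasts, so nothing is read from their count. The shares at least 2-fold lower were 20.3%, 28.9%, 32.1% and 33%. Scaling by median-of-ratios size factors in place of total UMIs moved every log2 ratio to 0 h up by 0.23 at 2 h, 0.30 at 4 h, 0.37 at 6 h and 0.29 at 8 h. It changed the split of calls at 2 h to 960 higher and 894 lower genes, beside 673 higher and 1183 lower with total UMIs, that at 4 h to 1620 and 1384, beside 1258 and 1735, and that at 6 h to 1909 and 1551, beside 1440 and 2055. Slamf6 stayed below its 0 h level under this scaling and under TMM scaling. The upper limits of its log2 ratio with total UMIs were -0.134, -0.129 and -0.092 at 4, 6 and 8 h. TMM scaling moved the log2 ratios up by 0.34, 0.44 and 0.30 at these times. Both scalings thus shifted the ratios by more than these limits, so under neither was Slamf6 lower beyond counting error. With median-of-ratios the CPM of Slamf6 was 62.4 without 4sU and 33.4, 31.6, 35.2 and 31.2 at 2, 4, 6 and 8 h. At 2, 4 and 6 h Slamf6 was thus not past 2-fold lower than without 4sU under median-of-ratios scaling.

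The successive steps separated the genes further. From 2 to 4 h, Cd160 was the one member at least 2-fold higher, as were 13.9% of 5493 genes, and none was at least 2-fold lower (15.5% of genes). From 4 to 6 h no member passed 2-fold in either direction (3.22% of genes were higher and 4.84% lower). From 6 to 8 h Cd160 was again the one member past 2-fold, now lower, as were 4.64% of 5585 genes, with Slamf1 just outside the threshold at 0.503 times its 6 h level; no member was 2-fold higher (2.86% of genes). Expressed as a share of the CPM summed over the 5 timed libraries, 33.9% of Crtam and 48.0% of Cd160 lay at 4 h, 44.0% of Slamf1 at 2 h, and 30.7% of Slamf6 at 0 h.

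Per cell, most cells with a UMI of one of these genes had a single one. To compare libraries of unequal depth, each cell was thinned to 300 UMIs, which left out shallower cells and kept 1209, 1173, 1312, 1765 and 893 cells at 0, 2, 4, 6 and 8 h. Crtam was then detected in 0.0827%, 7.67%, 9.15%, 6.63% and 4.26% of cells, and without thinning in 0.113%, 9.41%, 13.9%, 12.6% and 9.04%. Cd160 was detected in 0%, 3.58%, 11.6%, 7.25% and 2.35% of thinned cells, where 0 of 1209 cells allows a share of up to 0.248% (3 cells), and without thinning in 0.0563%, 5.51%, 17.6%, 13.9% and 6.58%. The shares followed the summed levels, so that more cells, and not only a few cells with very many UMIs, carried the RNA of both genes after stimulation.

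Slamf1 was detected in 0.0827%, 8.70%, 3.81%, 3.23% and 0.896% of thinned cells at 0, 2, 4, 6 and 8 h, and without thinning in 0.113%, 9.51%, 7.59%, 6.92% and 4.01%. Slamf6 was detected in 1.41%, 0.767%, 0.762%, 1.08% and 0.896% of thinned cells, with exact binomial intervals that all overlap, and without thinning in 2.08%, 1.20%, 1.44%, 1.98% and 2.06%. The naive T libraries hold no numerous cell type that should lack these genes, so the level set by free RNA in the droplets could not be measured there. At 0 h the thinned shares of Crtam, Cd160 and Slamf1 were at most 0.0827%. Each of these genes had at most 2 UMIs in that library, so this share sets no limit on free RNA in the stimulated libraries. Cells with more than 1 UMI were most frequent for Cd160 at 4 h, where 82 of 317 cells had 2 or more and the highest cell had 6, with a mean of 1.36 UMIs per cell with the gene; for Crtam the mean at 4 h was 1.16 and for Slamf1 at 2 h it was 1.07.

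**Figure D2:**
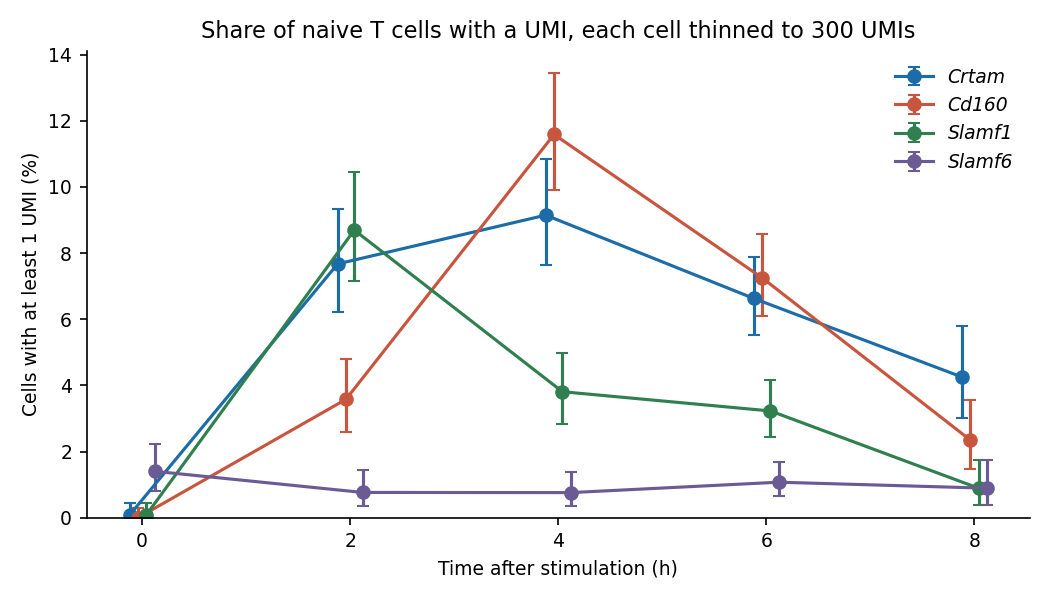
Share of cells with at least 1 UMI of each gene (y axis, %) by time after stimulation (x axis, h), after thinning each cell to 300 UMIs. Points are single libraries and error bars are 95% exact binomial intervals. Slamf1 is highest at 2 h (8.70%), Crtam and Cd160 at 4 h (9.15% and 11.6%), and Slamf6 stays at 0.762% to 1.41%.

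At 2, 4, 6 and 8 h, 21.6%, 32.8%, 28.1% and 17.9% of cells had a UMI of at least 1 of Crtam, Cd160 and Slamf1, against 0.281% at 0 h. A UMI of all 3 was seen in 0, 7, 10 and 0 cells at 2, 4, 6 and 8 h. Cells with 2 of these genes were counted against the number expected if the UMIs of each gene fell on cells in proportion to their total UMIs. Crtam and Cd160 were found together in 21 cells at 2 h (12.9 expected), 64 cells at 4 h (54.3 expected), 63 cells at 6 h (41.8 expected) and 7 cells at 8 h (7.07 expected). Summed over the 4 libraries this was 155 cells observed and 116 expected, a ratio of 1.34 with a counting interval of 1.13 to 1.56. The excess of cells with both genes was small beside the numbers expected. It was beyond counting error at 2 h (a ratio of 1.63, 1.01 to 2.50) and 6 h (1.51, 1.16 to 1.93). At 4 h the ratio was 1.18 (0.908 to 1.51), an interval that includes 1.

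Crtam and Slamf1 were found together in 81 cells with 71.2 expected (1.14, 0.903 to 1.41), and Cd160 and Slamf1 in 72 cells with 69.2 expected (1.04, 0.814 to 1.31). For both pairs the counting interval included a ratio of 1. Slamf1 and Slamf6, the 2 SLAM receptors, were found together in 18 cells with 9.73 expected (1.85, 1.10 to 2.92), above the expected number in 4 of 4 libraries but with at most 8 cells in any. By library, the interval excluded 1 only at 6 h (2.39, 1.03 to 4.70). After thinning, this pair was found in 1, 0, 1 and 0 cells at 2, 4, 6 and 8 h (0.783, 0.381, 0.614 and 0.0717 expected), too few to resolve an excess. Crtam and Slamf6 (21 cells, 15.7 expected) and Cd160 and Slamf6 (20 cells, 15.7 expected) had intervals that reach the expected number. Cells with a UMI of Crtam had a median of 567 UMIs at 4 h and cells without one had 407, so the unthinned shares mix depth with expression. After thinning, Crtam and Cd160 were found together in 5 cells at 2 h (3.22 expected), 14 cells at 4 h (13.9 expected), 10 cells at 6 h (8.48 expected) and 2 cells at 8 h (0.894 expected), too few to resolve an excess of the size seen before thinning.

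**Figure D3:**
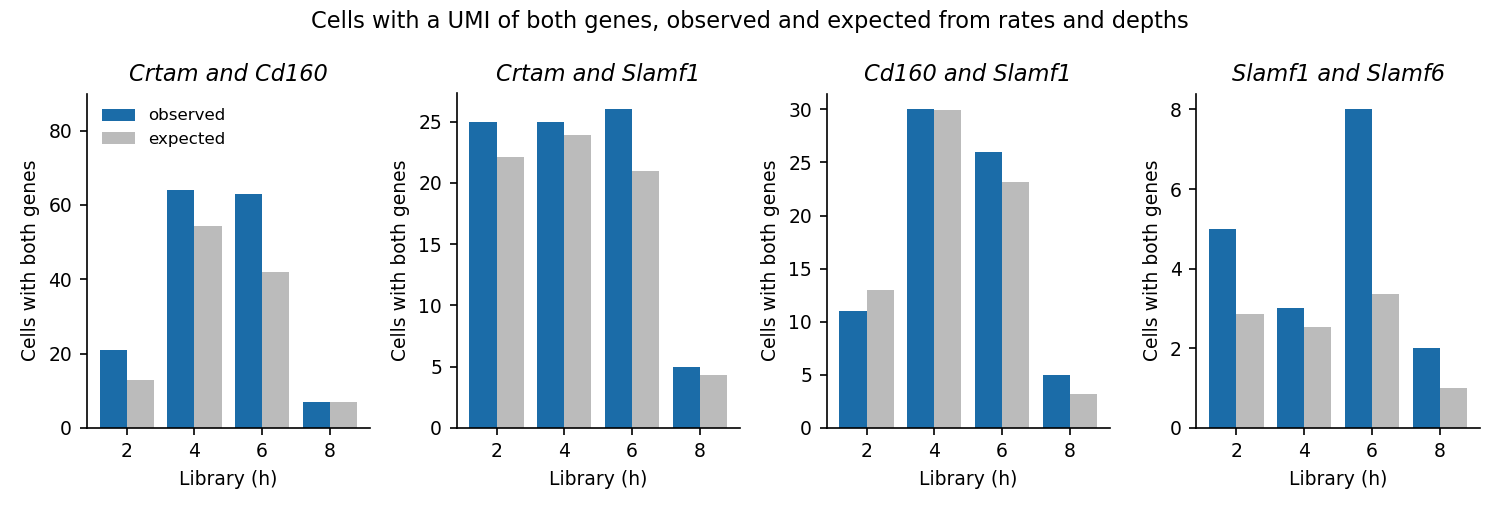
Number of cells with a UMI of both genes (y axis, a separate scale per pair) in the 2, 4, 6 and 8 h libraries (x axis), observed (blue) and expected from each gene's rate and each cell's depth (grey). Crtam and Cd160 lie above the expected number at 2, 4 and 6 h (21, 64 and 63 cells against 12.9, 54.3 and 41.8), at 4 h within counting error. Cd160 and Slamf1 stay close to the expected number.

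Few cells gave a UMI of Cd4, Cd8a or Cd8b1, so a subset could be marked only in part of each library. Over the 2 to 8 h libraries, Crtam was detected in 102 of 654 cells with a UMI of Cd8a or Cd8b1 and none of Cd4 (15.6%, exact binomial interval 12.9% to 18.6%), and in 1 of 65 cells with a UMI of Cd4 and none of Cd8a or Cd8b1 (1.54%, 0.0389% to 8.28%). Cd160 was detected in 91 of the 654 Cd8-marked cells (13.9%, 11.4% to 16.8%) and in 3 of the 65 Cd4-marked cells (4.62%, 0.962% to 12.9%). Crtam was thus found more often in the Cd8-marked than in the Cd4-marked cells, with intervals that do not overlap, while for Cd160 they overlap in part. Slamf1 had the other order, with 71 of 654 Cd8-marked cells (10.9%, 8.58% to 13.5%) and 12 of 65 Cd4-marked cells (18.5%, 9.92% to 30.0%), and Slamf6 was in 15 of 654 (2.29%) and 2 of 65 (3.08%), in both cases with overlapping intervals. Crtam was at 297, 400, 258 and 126 CPM in Cd8-marked cells at 2, 4, 6 and 8 h. In the cells with a UMI of none of Cd4, Cd8a and Cd8b1, Crtam was at 278, 325, 222 and 147 CPM. The marked cells differed in depth, with medians of 583.5 UMIs in Cd8-marked and 498 UMIs in Cd4-marked cells, and the part of depth in these shares was not tested. The sums pool 4 libraries, and the cells of a library are not replicates. The summed level of Cd8a and Cd8b1 was 320, 324, 230, 152 and 166 CPM at 0, 2, 4, 6 and 8 h.

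The ligands and signalling partners of the receptors were read from a list of 19 genes, of which 18 were found by symbol and 9 or 10 had at least 20 UMIs in each pair with 0 h. At 2 h, 4 of 10 were at least 2-fold higher than at 0 h (Btla, Slamf7, Fyn and Lck) and 1 was lower (Sh2d1a), beside 11.5% and 20.3% of all genes. The median log2 ratio was 0.34, beside -0.15 over all genes. At 4 h, 2 of 10 were higher (Slamf7 and Fyn) and 2 lower (Sh2d1a and Dlg1), beside 20.9% and 28.9% of all genes. At 6 h, 1 of 10 was higher and 2 lower, beside 22.5% and 32.1%. At 8 h, 0 of 9 were higher and 3 lower, beside 24.9% and 33%. The median log2 ratio at 8 h was -0.73, beside -0.22 over all genes. The ligand genes Cadm1 and Tnfrsf14 were barely detected. Cadm1, which encodes the Crtam ligand, had at most 2 UMIs in any library, and Tnfrsf14, which encodes a Cd160 ligand, had 1 to 7. MHC class I genes were not in the list. These 2 genes had too few UMIs for a ratio and are named for their role, after their values were seen.

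Slamf7, a SLAM receptor best known on NK cells and plasma cells, had 0 UMIs at 0 h and in the library without 4sU, and 109, 75, 63 and 14 UMIs at 2, 4, 6 and 8 h. Against a floor of 3 UMIs in the 0 h library its CPM was 35.0-fold higher at 2 h and 20.9-fold higher at 4 h. The lower counting limits of its ratio to 0 h were 28.0 and 16.6. Like Slamf1 it was highest at 2 h and lower at each later time, and over the 4 stimulated libraries both were found together in 33 cells with 25.2 expected (1.31, 0.902 to 1.84), an interval that includes 1. Btla, an inhibitory receptor that shares the ligand Tnfrsf14 with Cd160, had 24, 80, 45, 41 and 22 UMIs at 0, 2, 4, 6 and 8 h, and its CPM at 2 h was 3.21 times that at 0 h (2.01 to 5.30). Sh2d1a, which encodes the SLAM adaptor SAP, had 30 UMIs at 0 h and 1, 1, 10 and 3 UMIs at 2, 4, 6 and 8 h, a CPM ratio at 2 h of 0.0321 (0.000787 to 0.193). The adaptor transcript was therefore almost undetected at 2 and 4 h, when Slamf1 RNA was highest.

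Fyn, the kinase that SAP recruits, had 158, 457, 422, 421 and 182 UMIs at 0, 2, 4, 6 and 8 h (2.79 times higher CPM at 2 h than at 0 h, 2.32 to 3.36). Lck, the kinase of the antigen receptor's coreceptors, had 114, 284, 154, 132 and 76 UMIs (2.40 times higher at 2 h, 1.92 to 3.01). Dlg1, a polarity scaffold, had 55, 33, 31, 43 and 26 UMIs, a CPM ratio at 4 h of 0.471 (0.293 to 0.744). The other detected SLAM family genes, Cd48, Ly9 and Cd84, named after their values were seen, had 8 to 65 UMIs in the timed libraries and a 2-fold difference from 0 h only for Ly9 at 8 h, where it had 8 UMIs against 17. Slamf8, Slamf9, Sh2d1b1 and Sh2d1b2, also named after their values were seen, were at 0 in all 6 libraries.

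**Figure D4:**
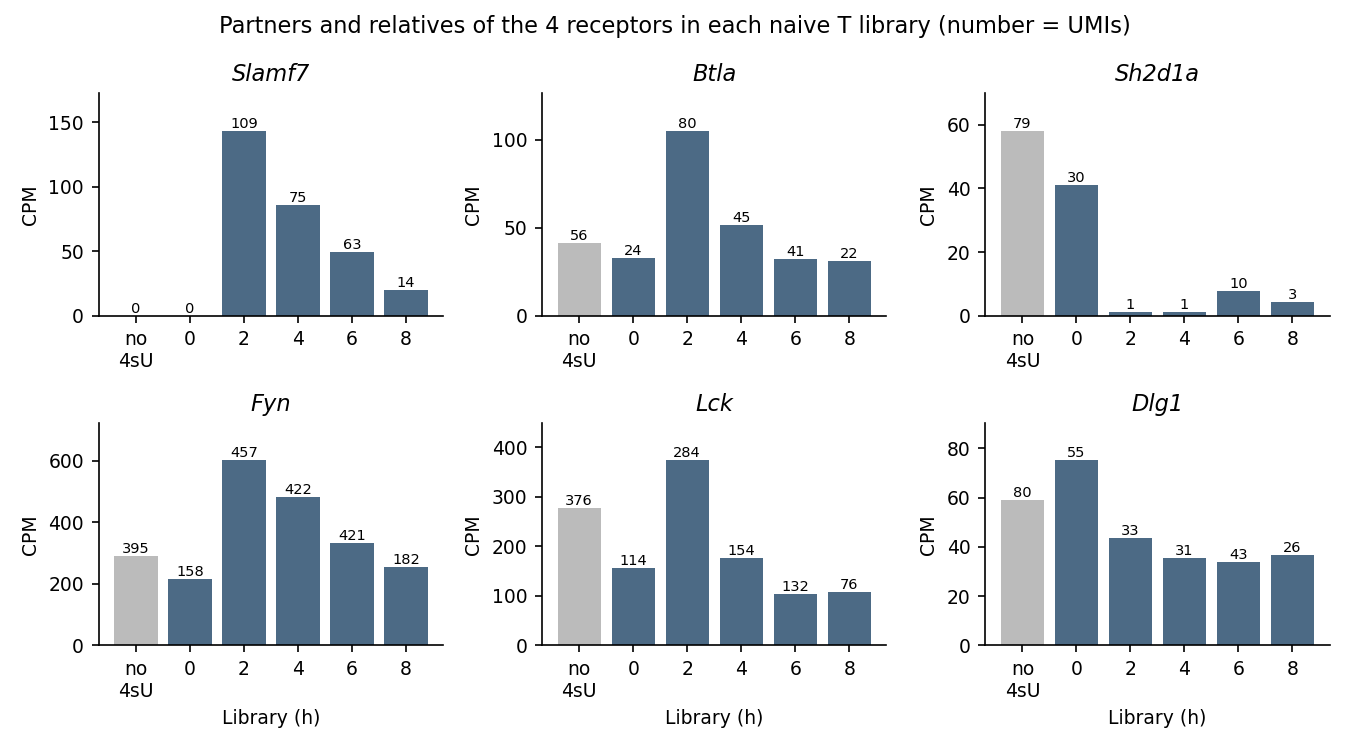
Level in CPM (y axis, a separate scale per gene) of 6 relatives and signalling partners of the receptors in the naive T libraries (x axis, hours, with the library without 4sU at the left in grey). Bars are single libraries and numbers are UMIs. Slamf7 appears at 2 h (109 UMIs) and declines, Btla, Fyn and Lck are highest at 2 h, and Sh2d1a is at 1 UMI at 2 and 4 h.

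Among 10 further nectin-binding and checkpoint receptors, of which 6 had at least 20 UMIs in each pair, Pdcd1, the gene of the inhibitory receptor PD-1, was the one at least 2-fold higher than at 0 h at each time. It had 1, 33, 61, 60 and 31 UMIs at 0, 2, 4, 6 and 8 h. Cd96, Ctla4 and Cd28 were at least 2-fold lower at 4, 6 and 8 h, and Cd226, another nectin-binding receptor, only at 8 h. Of the 6 genes, 1 was thus higher at each time, and 0, 3, 3 and 4 were lower at 2, 4, 6 and 8 h. Of all genes, 11.5%, 20.9%, 22.5% and 24.9% were higher and 20.3%, 28.9%, 32.1% and 33% lower at these times. Cd96 had 56, 55, 29, 28 and 16 UMIs and Cd28 had 61, 38, 27, 21 and 21. Of the activation markers with at least 20 UMIs in the pair, 13 of 14 at 2 h, 15 of 15 at 4 h, 15 of 15 at 6 h and 9 of 11 at 8 h were at least 2-fold higher than at 0 h, beside 11.5%, 20.9%, 22.5% and 24.9% of all genes. At 8 h Cd69 and Nr4a1, named after their values were seen, were at 1.42 and 1.87 times their 0 h level. The list of resting T cell genes had 8 of 8 at least 2-fold lower at all 4 times, beside 20.3%, 28.9%, 32.1% and 33% of all genes.

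Of 4001 genes with at least 100 UMIs, those whose shares over the 5 timed libraries lay closest to each receptor were ranked by the Euclidean distance between shares. The nearest to Crtam were Gramd1b (a distance of 0.0217), Ppan, Rrp1b, Tuba1c and St3gal1. The nearest to Cd160 were Irf8 (0.0566), Cish, Ccl4, Tfrc and Ssbp4. Slamf7 was nearest to Slamf1 (0.0565), followed by Orai1, 4930417O13Rik, Cd69 and Lcp2, and Slamf6 was followed by Tsg101 (0.0206), Sec62, Arfgef1, Srsf4 and Scaf11. With 5 libraries such likeness is a description, and ranking by correlation of log2(CPM + 10) named largely other genes.

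In the timed libraries from 2 h on, cells with a UMI of Cd160 also held more chemokine RNA per UMI than cells without one. The intervals in this paragraph count each UMI as independent. They leave out the spread between cells, whose size was not tested, so they are too narrow for a contrast between groups of cells. Xcl1, a chemokine that attracts cross-presenting dendritic cells, had 17183 CPM in Cd160 cells at 4 h and 9888 CPM in the other cells (a ratio of 1.74, 1.67 to 1.81), and 22772 against 13282 CPM at 6 h (1.71, 1.66 to 1.77). Ccl4, a chemokine of activated cytotoxic cells, had 2051 CPM in Cd160 cells at 4 h and 1022 CPM in the other cells (2.01, 1.77 to 2.27). In Crtam cells at 4 h the ratios were lower, at 1.39 for Ccl4 (1.20 to 1.60) and 1.21 for Xcl1 (1.16 to 1.27); over 2, 4, 6 and 8 h the Ccl4 ratio was 2.21, 1.39, 1.70 and 1.45 in Crtam cells and 1.80, 2.01, 1.49 and 1.94 in Cd160 cells. For Slamf1 cells the ratio of Xcl1 was 1.65, 1.15, 1.16 and 1.32 at 2, 4, 6 and 8 h, and that of Ccl4 was 1.03 (0.736 to 1.41), 1.19 (0.989 to 1.43), 1.41 (1.18 to 1.68) and 1.71 (1.12 to 2.50). Among the 8 leading genes of Crtam cells at each time, Agfg1 was the one listed at more than 1 time, with ratios of 2.47 at 4 h and 2.17 at 6 h, and no leading gene of Slamf1 cells repeated.

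The human counterparts were read in the Jurkat libraries, which the choice of the genes did not use. CRTAM was at 9.84 and 24.2 CPM in the 2 stimulated libraries, against 0.320 and 2.35 CPM in the 2 unstimulated libraries, in replicates 1 and 2. CD160 was at 1.47 and 3.45 CPM in the stimulated libraries, against 0.240 and 0.415 CPM in the unstimulated ones. For both genes every stimulated library was above every unstimulated one. SLAMF1 was at 3.06 and 0.852 CPM in the stimulated libraries, against 0.987 and 0.554 CPM in the unstimulated ones, and SLAMF6 at 19.5 and 11.3 CPM, against 32.6 and 16.1 CPM, and for both the groups overlapped.

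The log2 fold change was 3.81 ± 1.31 (SE) for CRTAM, 3.15 ± 0.91 for CD160, 1.27 ± 0.71 for SLAMF1 and -0.63 ± 0.46 for SLAMF6, each with an adjusted p of 0.999982 (edgeR's quasi-likelihood test, Benjamini-Hochberg adjustment over 19099 genes, n = 2 libraries per group). The test called none of the 4, and 0 of 19099 genes in all (0% higher and 0% lower), although 218 had an unadjusted p under 0.05. The activation markers EGR1 and CD69, named after their values were seen, were thus not called either. EGR1 had 976 and 923 CPM in the stimulated libraries, against 8.03 and 11.4 CPM in the unstimulated ones. CD69 had 1189 and 747 CPM, against 40.5 and 6.51 CPM. The lack of a call therefore does not show that the 4 genes did not respond. DESeq2 called 49 genes higher (0.244% of 20090) and 0 lower, CRTAM among them (adjusted p 0.0491). By edgeR without stimulated replicate 1, 40 genes were called higher and CRTAM had a log2 fold change of 4.45 (adjusted p 0.00281), and without unstimulated replicate 2, 16 were called higher and CRTAM had 6.01 (adjusted p 0.0485). Without stimulated replicate 2, 21 genes were called higher and 4 lower, and CRTAM had 2.75 (adjusted p 0.999983). Without unstimulated replicate 1, 0 genes were called and 317 had an unadjusted p under 0.05 by edgeR. With a library left out, 1 group holds a single library, which is assumed to vary like the pair in the other group, so these adjusted p-values rest on the spread of that pair. No label says that the libraries of a group came from separate cultures, so these p-values measure the spread between libraries, which may be technical.

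**Figure D5:**
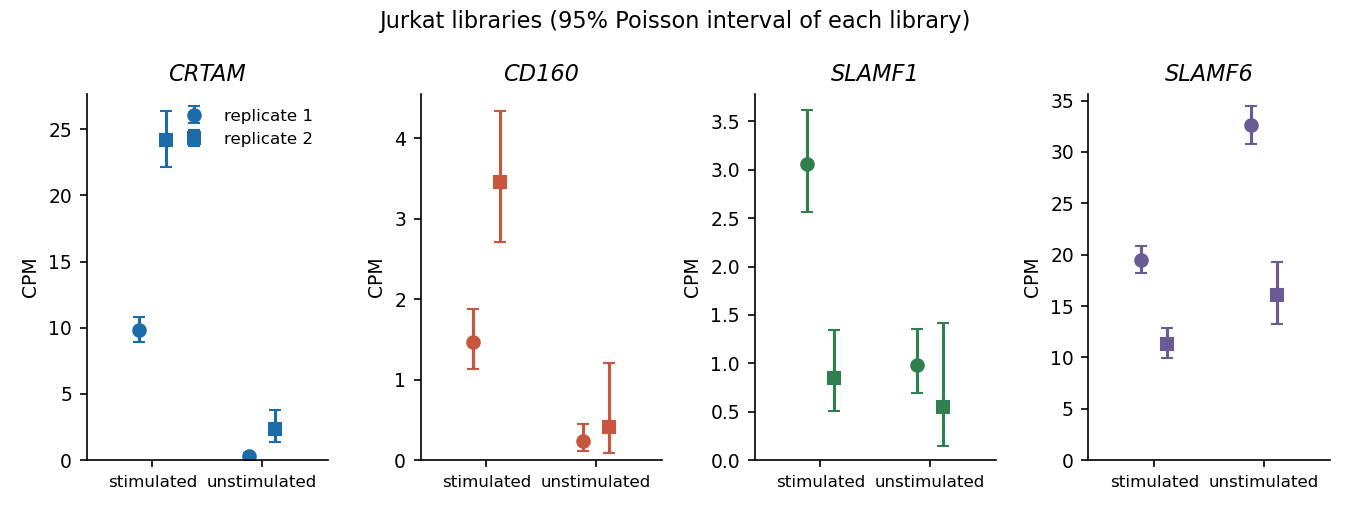
Level in CPM (y axis, a separate scale per gene) of the human counterparts in stimulated (left) and unstimulated (right) Jurkat libraries. Each point is 1 library (circle, replicate 1; square, replicate 2) with its 95% Poisson interval. CRTAM and CD160 are higher in both stimulated libraries (9.84 and 24.2 CPM, and 1.47 and 3.45 CPM) than in either unstimulated one, and SLAMF1 and SLAMF6 overlap.

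CRTAM RNA in the stimulated Jurkat libraries came from a minority of cells. In replicate 1, 441 UMIs were held by 90 of 2296 cells, and the 1% of cells with most CRTAM held 68.9% of them; in replicate 2, 511 UMIs were held by 223 of 1933 cells, and the top 1% of cells held 26.0%. CD160 was found in part of these cells: both genes were found in 13 cells in replicate 1 (1.69 expected) and in 35 cells in replicate 2 (9.67 expected). CD160 was found in 31 cells of replicate 1 and 59 cells of replicate 2 in all. CRTAM and SLAMF1 were found together in 7 cells (4.61 expected) and 3 cells (2.81 expected), and CRTAM and SLAMF6 in 31 cells (30.1 expected) and 40 cells (34.4 expected). In both stimulated libraries CRTAM was thus found with CD160 more often than its rate predicts, and with SLAMF6 about as often. Of the 24 other genes listed with the largest CPM ratio of CRTAM cells to other cells in each stimulated library, 12 were shared, a list chosen after its values were seen. They include SLAMF7 (49.8 CPM in CRTAM cells and 0.674 CPM in the other cells of replicate 1, and 68.6 and 5.83 CPM in replicate 2), CCL4, CCL3, IFNG, TGFBR3 and CD160.

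The promoter windows of the human genes are shown to set CD160, which was higher in both stimulated Jurkat libraries, beside SLAMF1 and SLAMF6, whose groups overlapped. They run from 250 bases before to 50 bases after the gene start on the gene's strand, 5′ to 3′, from RefSeq on GRCh38.p14, in which 3 of the 4 genes had an entry: CD160 at chr1:145719249-145719548 on the + strand, SLAMF1 at chr1:160646995-160647294 on the - strand, and SLAMF6 at chr1:160523206-160523505 on the - strand. CRTAM is named only. Capitals mark the core motif of NFAT, the calcium-activated factor downstream of the antigen receptor (GGAAA or its reverse complement).
CD160: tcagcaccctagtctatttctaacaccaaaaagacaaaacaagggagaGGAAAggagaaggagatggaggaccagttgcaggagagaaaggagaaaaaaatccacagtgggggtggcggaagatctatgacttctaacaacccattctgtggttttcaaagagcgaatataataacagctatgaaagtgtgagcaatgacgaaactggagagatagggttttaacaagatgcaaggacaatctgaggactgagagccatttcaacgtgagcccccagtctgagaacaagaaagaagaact
SLAMF1: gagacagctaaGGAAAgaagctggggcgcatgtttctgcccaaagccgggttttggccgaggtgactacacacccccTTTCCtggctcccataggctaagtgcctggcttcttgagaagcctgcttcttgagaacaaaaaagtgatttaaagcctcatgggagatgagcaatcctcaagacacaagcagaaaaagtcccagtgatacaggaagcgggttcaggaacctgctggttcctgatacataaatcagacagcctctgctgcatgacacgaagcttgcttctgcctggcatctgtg
SLAMF6: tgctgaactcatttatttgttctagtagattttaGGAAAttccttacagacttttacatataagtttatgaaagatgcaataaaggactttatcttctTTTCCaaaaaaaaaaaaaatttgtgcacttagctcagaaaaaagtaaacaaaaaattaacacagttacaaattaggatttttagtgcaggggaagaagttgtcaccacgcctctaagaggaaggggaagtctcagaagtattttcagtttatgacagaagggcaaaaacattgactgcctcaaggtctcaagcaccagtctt
The NFAT core was found 1 time in the CD160 window and 2 times each in the SLAMF1 and SLAMF6 windows, and 61.2% of 35116 windows of the same length hold it. Searched on both strands, the AP-1 motif TGANTCA (7.71% of windows) and the EGR motif GCGTGGGCG (0.795%) had no match in the 3 windows, and the E-box CANNTG (68.7%) had 1 match each in CD160 and SLAMF1 and none in SLAMF6. None of these motifs contains the letters of the NFAT core. The windows of CD160 and SLAMF1 thus did not differ in these motifs except in the number of NFAT cores, and a match is a description of letters, not a bound site.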

How the data were processed

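Single-cell 3' libraries of mouse naive T cells and human Jurkat cells were read from deposited matrices of UMI counts (genes by cell barcodes), which the authors made with cellranger (7.2.0 for naive T and mixed libraries, 7.1.0 for the human ones, per the file headers). The counts cover all RNA, so labelled and older RNA are not separated. Builds GRCh38 and mm10 stand in the submitters' processing notes. Bulk tables were not analysed here. The result of 1 marker list is not reported here.

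The members and lists were chosen with earlier results of these data known. UMIs were summed per library, scaled to CPM and given with 95% exact Poisson intervals, and ratios with exact conditional binomial intervals (scipy 1.17.1). Genes with at least 20 UMIs in a pair were called at 2-fold, with a floor of 3 UMIs for 0 counts. All deposited barcodes were used, with no doublet caller; at most 4 barcodes per library held UMIs of both Cd4 and Cd8a or Cd8b1. For shares, cells were thinned to 300 UMIs. Named list genes are at most 6 per list, by largest ratio to 0 h; others were named after their values were seen. Jurkat sums were tested with edgeR 4.0.16 (R 4.3.3; filterByExpr, TMM), with DESeq2 1.42.0 as an alternative. The edgeR script was tested on simulated data.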

Additional observations from a re-analysis of the deposited data

How the results depend on the processing

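The 16 log2 ratios of the 4 genes to 0 h kept their direction under 8 alternatives (2 other scalings, totals without mitochondrial and ribosomal protein genes, 2 filters on barcodes, 2 other comparison libraries and a pseudocount), each within its counting interval. Slamf6 passed 2-fold lower against the 0 h and no-4sU libraries summed (-1.09 to -1.25) and, with totals without mitochondrial and ribosomal protein genes, at 4 h (-1.01) and 8 h (-1.06). Of 24 CPM values, Crtam at 6 h moved to 263 and Cd160 at 6 h to 312 under TMM, and Cd160 at 6 h moved to 298 and Slamf6 without 4sU to 62.4 under median-of-ratios. With at least 100 UMIs in the pair, 222, 543, 792 and 600 genes were higher and 225, 360, 462 and 370 lower at 2, 4, 6 and 8 h than at 0 h. The hour with the highest share of cells moved for Crtam, to 2 h when cells were thinned to 500 UMIs. Thinned to 300 UMIs, observed over expected cells moved to 2.24 for Crtam and Cd160 at 8 h, 0.437 for Crtam and Slamf1 at 4 h, and 0 at 8 h for Crtam and Slamf1 and for Cd160 and Slamf1, on few cells. By correlation, the 5 nearest genes shared 1 with the list of Crtam and 0 with those of Cd160, Slamf1 and Slamf6.

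In Jurkat cells the replicate block gave 1071 higher (5.61%) and 987 lower (5.17%) of 19099 genes, and log2 fold changes of 4.18 for CRTAM (adjusted p 1.24e-57), 2.75 for CD160 (3.17e-09), 1.50 for SLAMF1 (0.000297) and -0.63 for SLAMF6 (0.000779), by edgeR's quasi-likelihood test. Deviations of same-numbered libraries from their group means correlated at 0.951 over 15672 genes, but only replicate 1 is numbered in the labels, no label names a shared batch and there are 2 pairs, so the pairing is not taken as part of the design. DESeq2 gave 49 higher genes and 3.76 for CRTAM, and no filter beyond 1 UMI gave 12 higher genes. Leaving out each library gave 0 to 40 higher and 0 to 4 lower genes, and 2.75 to 6.01 for CRTAM. The cause of these changes was not tested. Depth limits the per-cell shares, since the median naive T cell had 338 to 659 UMIs, and the 0 h values of 1 or 2 UMIs limit the ratios.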

Other observations

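The 4 genes were also read in lines of other lineages. In eHAP, a human haploid line, CRTAM and CD160 had at most 0.375 CPM in any of 3 libraries and SLAMF1 and SLAMF6 at most 0.147 CPM. In the 4sU library labelled K562, a human leukaemia line, CRTAM was at 1.51 CPM, CD160 at 1.69 CPM, SLAMF1 at 0.979 CPM and SLAMF6 at 0.356 CPM. These levels came from 4 to 19 UMIs each. The interval of CD160 (1.02 to 2.64) overlapped that of its lower stimulated Jurkat library (1.47 CPM, 1.14 to 1.87). The interval of SLAMF1 (0.489 to 1.75) likewise overlapped that of its lower stimulated Jurkat library (0.852 CPM, 0.505 to 1.35). In the 49 cells of the library without IAA no gene had more than 2 UMIs. Among Jurkat cells of a mixed library (239 barcodes), SLAMF6 had 21 UMIs (18.2 CPM), CRTAM and SLAMF1 1 UMI each and CD160 none. Among the 291 NIH3T3 mouse fibroblasts of that library, Slamf1 had 6 UMIs (4.98 CPM, 1.83 to 10.8) and the other 3 genes had none, which allows up to 2.49 CPM each (3 UMIs).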
